A study of Mus musculus with 10 samples.

Results

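The genes described here are markers of the 2 kinds of cells that build the vessels of the brain: endothelial cells, which line them, and mural cells, the pericytes and smooth muscle cells wrapped around them. A list of 36 gene symbols (24 endothelial and 12 mural) was matched to the first column of the expression table. Of these, 33 genes were measured, 24 endothelial and 9 mural, among the 12575 genes of the table. The pericyte genes Kcnj8, Higd1b and Ndufa4l2 were not in the table and were not analysed here.

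The data are RNA-seq of cerebral cortex from C57BL/6 mice aged 4 months according to the labels, with 5 libraries of Cre- mice and 5 of BMAL1 aKO mice. All mice carry loxP-flanked Bmal1 alleles (Bmal1 fl/fl, gene symbol Arntl) and all were given tamoxifen. BMAL1 aKO mice also carry Aldh1l1-CreERT2, a tamoxifen-inducible Cre driven by an astrocyte promoter, and Cre- mice are their littermates without it. Each library is bulk cortex, so vessel cells are a small share of the RNA, Bmal1 is intact in them by design, and fewer cells of a type and less RNA per cell cannot be told apart.

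Endothelial cells of the brain are joined by tight junctions and carry dedicated transporters, which together form the blood-brain barrier. Pericytes sit in the basement membrane of capillaries and are recruited by endothelial PDGF-B through the receptor Pdgfrb, whereas smooth muscle cells of arterioles hold the contractile proteins that set vessel tone. Astrocytic endfeet cover nearly the whole outer face of these vessels, and BMAL1, with its partner CLOCK, is the transcription factor at the core of the circadian clock.

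Values are CPM (reads of a gene scaled to a fixed total per library), from 21844770 to 48295715 reads per library. A member was represented by 68 reads (Anpep) to 13714 reads (Bsg) in a library. Over all genes, pairs of replicates gave a chi-square of 12.9 to 447 per degree of freedom, where counting error alone gives about 1. Arntl averaged 34.2 ± 2.25 CPM over the Cre- and 34.5 ± 2.93 CPM over the BMAL1 aKO libraries (SD, n = 5). This does not check the labels, since the reads come from the whole gene and from all cells of the cortex. Cre- replicates 3 and 4 stood apart, with 6.19% and 9.29% of their reads from mitochondrial genes against 13.4 to 19.9% in the other 8 libraries.

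The question was whether vascular genes differ between cortex with and without astrocytic Bmal1, and whether endothelial and mural genes do so to the same extent. No vascular gene passed the test. In limma fits of log2(CPM + 0.5) over 12573 genes, with libraries weighted by their estimated quality, 0 of the 33 members reached an adjusted p of 0.1, against 42 of all genes (0.334%), and 0 passed with voomWithQualityWeights on reads recovered from the CPM. At an unadjusted p below 0.05, 6 members were higher in BMAL1 aKO (Emcn, Esam, Ly6a, Myl9, Cspg5 and Slco1c1) and 1 was lower (Mfsd2a). These 7 members are 21.2% of the 33, where 16.8% of all genes reached the same p. By direction, 18.2% of members were higher against 6.82% of all genes, and 3.03% were lower against 10.0% of all genes. The CPM of the 2 groups overlapped for all 33 members, while they did not overlap for 1.0% of all genes.

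The weights carry much of this. Cre- replicate 1 had a weight of 7.19 and Cre- replicate 3 one of 0.18, so replicate 1 made up 72.9% of the weight of the Cre- group. With equal weights 0 members had an unadjusted p below 0.05, against 4.79% of all genes, and 7 of the 33 estimates changed sign. Without Cre- replicate 1 the count was also 0, against 4.70% of all genes, and 13 estimates went from above to below 0 (Flt1, Kdr, Tie1, Ptprb, Cdh5, Pecam1, Abcb1a, Abcg2, Tfrc, Ly6c1, Vwf, Rgs5 and Abcc9). For this reason the weighted estimate and the difference of the plain group means are given together below, both as log2 differences of CPM + 0.5 with BMAL1 aKO minus Cre-, the second with a two-sided exact permutation test over the 10 libraries.

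**Figure D1:**
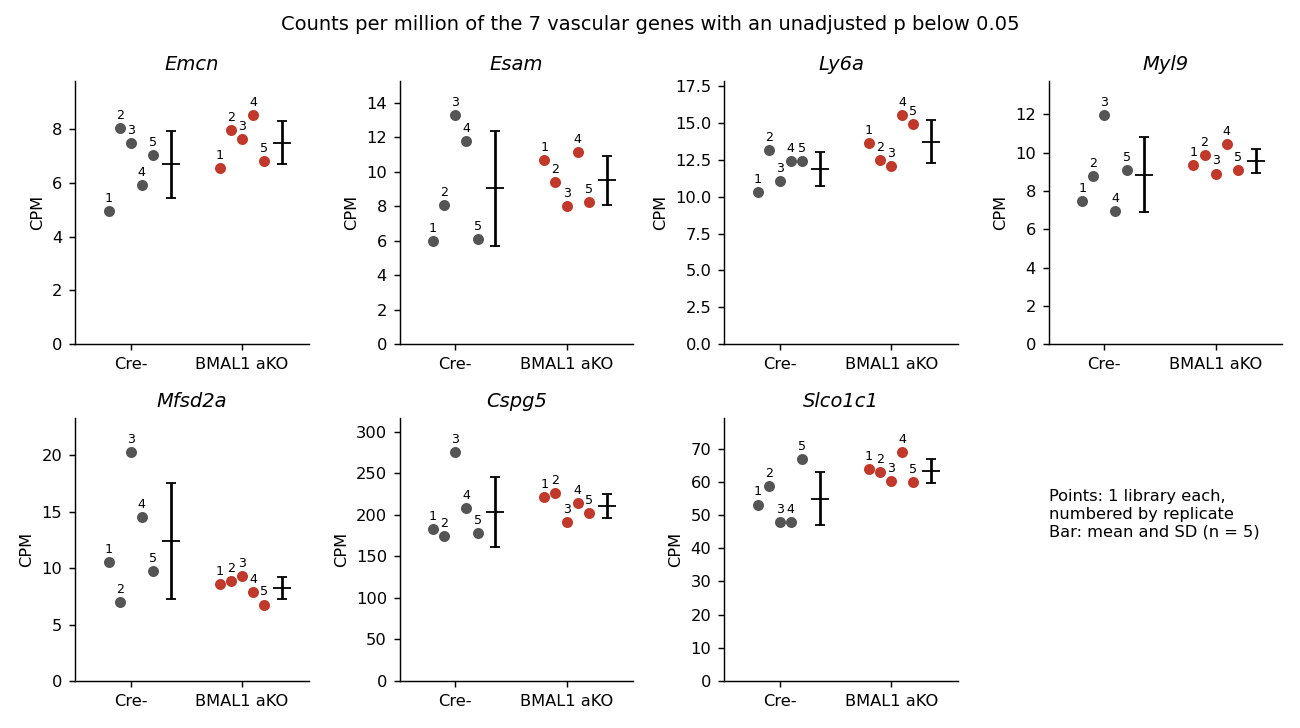
CPM (y axis, starting at 0) of the 7 vascular genes with an unadjusted p below 0.05, in 5 Cre- (grey) and 5 BMAL1 aKO (red) libraries numbered by replicate, with mean and SD. In every panel the 2 groups overlap, and Cre- replicate 3 is the highest library for Esam, Myl9, Mfsd2a and Cspg5.

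Among the junction and adhesion genes, Esam was the member with the largest estimate. It encodes an immunoglobulin-type adhesion molecule of endothelial junctions (ENSMUSG00000001946, chr9:37528078-37538319, plus strand; all gene positions are GRCm38). By replicate number from 1 to 5, the order kept for every gene below, Esam was at 6.00, 8.06, 13.3, 11.8 and 6.11 CPM in the Cre- group and at 10.7, 9.43, 7.99, 11.1 and 8.24 CPM in BMAL1 aKO libraries. All 5 BMAL1 aKO libraries lay within the Cre- range, below Cre- replicates 3 and 4 and above Cre- replicates 1 and 5. The weighted difference was 0.49 (SE 0.15, adjusted p = 0.183, limma), whereas the difference of the plain means was 0.12 (exact permutation p = 0.611). Without BMAL1 aKO replicate 3 the weighted difference was 0.56 and its adjusted p 0.0938 (limma), in a fit in which 6.71% of all genes passed. It was 0.26 (adjusted p = 0.925, limma) without Cre- replicate 1 and 0.25 (adjusted p = 0.603, limma) without Cre- replicate 5.

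Cdh5, the VE-cadherin of adherens junctions, was at 16.6, 17.0, 20.9, 22.8 and 23.2 CPM in Cre- and at 25.5, 24.3, 19.8, 20.3 and 16.1 CPM in BMAL1 aKO libraries. Both the highest and the lowest library were BMAL1 aKO (replicates 1 and 5), and the groups overlapped. Its weighted difference was 0.17 (SE 0.13, adjusted p = 0.488, limma), and -0.12 without Cre- replicate 1. The plain one was 0.07 (exact permutation p = 0.635). Pecam1, the adhesion molecule CD31, ranged from 14.9 to 23.4 CPM in Cre-, with 18.2, 14.9, 19.0, 23.4 and 22.5 CPM by replicate. In BMAL1 aKO it was at 19.7, 20.2, 20.5, 22.2 and 16.6 CPM, all inside the Cre- range, with a plain difference of 0.03 (exact permutation p = 0.849). Cldn5, the main claudin of the brain's tight junctions, averaged 15.0 ± 4.87 CPM over Cre- libraries and 13.6 ± 3.74 CPM over BMAL1 aKO libraries (SD, n = 5), with a weighted difference of -0.08 and a 95% interval from -0.40 to 0.24.

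For the angiogenic receptors no member had an unadjusted p below 0.05, and estimates ran from -0.25 (Eng) to 0.20 (Kdr). Kdr encodes VEGFR2, the main signalling receptor for VEGF-A. It was at 14.6, 14.4, 19.4, 16.8 and 19.3 CPM in Cre- and at 18.2, 20.3, 17.8, 16.7 and 17.0 CPM in BMAL1 aKO libraries. BMAL1 aKO replicate 2 was the highest of the 10 and Cre- replicates 1 and 2 were the lowest. Weighting gave a difference of 0.20 (SE 0.10, adjusted p = 0.304, limma) and the plain one 0.10 (exact permutation p = 0.341). The direction did not hold: the weighted value was -0.02 without Cre- replicate 1 and -0.01 both with a replicate block and with Cre- replicates 3 and 4 left out.

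Eng, the co-receptor endoglin for TGF-beta family ligands, was at 17.6, 10.4, 30.2, 20.6 and 14.4 CPM in Cre- and at 18.2, 19.6, 16.2, 11.3 and 10.6 CPM in BMAL1 aKO libraries. Cre- replicates 3 and 4 were above every other library, and the remaining 8 overlapped. Its exons overlap those of Fpgs on the opposite strand, and the library kit does not keep strand, so reads of the 2 genes cannot be told apart there. Flt1, the VEGF receptor 1, was at 103, 98.0, 99.2, 118 and 120 CPM in Cre- and at 114, 122, 116, 117 and 94.5 CPM in BMAL1 aKO libraries. Of the BMAL1 aKO libraries, 4 lay close together and replicate 5 was the lowest of all 10. Of the other receptors, Tie1 and Tek are the receptors of the angiopoietin pathway and Ptprb is a phosphatase that restrains Tek. Their plain differences were -0.26, -0.06 and -0.02 and their weighted ones 0.03, -0.05 and 0.05.

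The barrier transporters held the only member with an unadjusted p below 0.05 in the lower direction. Mfsd2a, which carries docosahexaenoic acid as lysophosphatidylcholine and restrains transcytosis (ENSMUSG00000028655, chr4:122946850-122961188, minus strand), was at 10.5, 7.004, 20.3, 14.5 and 9.72 CPM in Cre- libraries. In BMAL1 aKO libraries it was at 8.57, 8.84, 9.26, 7.87 and 6.77 CPM. All 5 were below the Cre- median, Cre- replicate 2 lay among them, and Cre- replicates 3 and 4 were the highest. Its weighted difference was -0.34 (SE 0.13, adjusted p = 0.221, limma) and the plain one -0.48 (exact permutation p = 0.103). Without each library in turn the estimate stayed between -0.46 and -0.25. It was -0.22 (adjusted p = 0.429, limma) with Cre- replicates 3 and 4 left out and -0.22 (adjusted p = 0.583, limma) with the Xist level as a covariate.

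Slco1c1 encodes OATP1C1, the thyroxine transporter of the barrier (ENSMUSG00000030235, chr6:141524368-141570177, plus strand). It was at 53.2, 58.8, 48.0, 48.0 and 66.8 CPM in Cre- and at 64.0, 63.1, 60.2, 69.0 and 60.1 CPM in BMAL1 aKO libraries. All 5 BMAL1 aKO libraries were above 4 of the Cre- libraries, and Cre- replicate 5 was above 4 of the BMAL1 aKO libraries. The weighted difference was 0.19 (SE 0.08, adjusted p = 0.258, limma) and the plain one 0.21 (exact permutation p = 0.0794). The weighted value fell to 0.06 without Cre- replicate 1 and 0.11 without Cre- replicate 4, and was -0.01 with Cre- replicates 3 and 4 left out. Of the 8 choroid plexus genes listed, 4 were measured, and their summed level was highest in BMAL1 aKO replicate 1 (1574 CPM) and Cre- replicate 5 (1446 CPM), next to 187 to 657 CPM in the other 8 libraries. Cre- replicate 5 is also the highest Cre- library for Slco1c1, which choroid plexus epithelium can express too, and the part of those cells in the result was not tested.

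Among the members with a promoter window at hand, Slco1c1 was the only one with an E-box of the form CACGTG, the sequence that BMAL1 and CLOCK bind. RefSeq promoter windows (250 bases before to 50 after a start site) were at hand for 24 of the 36 symbols, with 30 windows. The 6 letters, which read the same on both strands, occurred in 1 of these and in 7.15% of all 32851 windows. A CArG box, the motif of serum response factor in smooth muscle genes, occurred in 1 of the 30, that of Myl9, and in 1.63% of all windows. The Slco1c1 motif begins 19 bases after the RefSeq start site of its window and the Myl9 motif 161 bases before that of its own. These start sites differ from the gene starts printed with the gene positions. Both are shown with the motif in capitals because they are the sole matches of either motif among the 30 windows. Members without a window were not searched, and a match in letters is not a bound site.
Slco1c1 start site, GRCm38.p6, chr6:141524363-141524388, plus strand: aaagctttatCACGTGtggccttaaa
Myl9 promoter, GRCm38.p6, chr2:156775293-156775322, plus strand: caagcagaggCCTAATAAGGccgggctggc

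Slco1a4, the organic anion transporter OATP1A4, was at 43.9, 51.4, 46.0, 46.9 and 52.7 CPM in Cre- and at 49.8, 53.1, 53.1, 56.7 and 43.7 CPM in BMAL1 aKO libraries. BMAL1 aKO replicate 5 was the lowest of all and replicate 4 the highest. The efflux pumps Abcb1a (P-glycoprotein) and Abcg2 and the transferrin receptor Tfrc, which takes up iron, had weighted differences of 0.11, 0.11 and 0.02, with adjusted p from 0.496 to 0.932 (limma). Their plain differences were -0.02, 0.02 and -0.05. Abcb1a has a related gene, Abcb1b, in the table, and any reads common to both could be split by the counting. Its exons, like those of the pericyte gene Abcc9, also overlap a gene on the opposite strand.

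Of the 8 endothelial surface and secreted genes, Emcn had the smallest p. It encodes endomucin, a sialoglycoprotein of capillary and venous endothelium (ENSMUSG00000054690, chr3:137341067-137432185, plus strand). Emcn was at 4.97, 8.06, 7.47, 5.92 and 7.06 CPM in Cre- and at 6.57, 7.98, 7.64, 8.52 and 6.81 CPM in BMAL1 aKO libraries. Cre- replicate 1, the library with the largest weight, was the lowest of the 10, and the other 9 overlapped. For Emcn the weighted difference was 0.43 (SE 0.13, adjusted p = 0.182, limma) and the plain one 0.17 (exact permutation p = 0.262). Without Cre- replicate 1 the weighted difference was 0.11.

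Ly6a, the surface protein Sca-1 of brain endothelium (ENSMUSG00000075602, chr15:74994877-74998031, minus strand), was at 10.3, 13.2, 11.04, 12.4 and 12.4 CPM in Cre- and at 13.7, 12.5, 12.1, 15.5 and 14.9 CPM in BMAL1 aKO libraries. BMAL1 aKO replicates 1, 4 and 5 were above all Cre- libraries, and replicates 2 and 3 lay within their range. The weighted difference was 0.32 (SE 0.10, adjusted p = 0.183, limma). The plain one was 0.20 (exact permutation p = 0.0635), the smallest exact p of any member. Without BMAL1 aKO replicate 3 its weighted difference was 0.40 with an adjusted p of 0.0704 (limma), and without Cre- replicate 1 it was 0.13 with an adjusted p of 0.925 (limma).

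Bsg, the glycoprotein basigin, which escorts monocarboxylate transporters to the membrane and is made by many cell types, was the most abundant member per transcript length (143 CPM per kb). It was at 219, 147, 324, 303 and 205 CPM in Cre- and at 219, 230, 200, 182 and 159 CPM in BMAL1 aKO libraries. Cre- replicates 3 and 4 were again the 2 highest and Cre- replicate 2 the lowest, and the weighted difference was -0.18 (SE 0.11, adjusted p = 0.420, limma). The other members of this role had weighted differences between -0.12 (Cd34, a sialomucin of capillaries) and 0.20 (Egfl7, a secreted vessel protein). Between these lay Vwf, the clotting factor carrier, at 0.01, Ly6c1 at 0.03 and Itm2a at 0.11. The plain differences of Vwf, Ly6c1 and Itm2a were -0.26, -0.10 and 0.09. For Cd34 the plain difference was -0.003, and for Egfl7 it was -0.05, opposite in sign to the weighted one. Exons of Egfl7 and Cd34 overlap other genes, with the same limit as for Eng, and Ly6c1 has a close copy, Ly6c2, whose reads could be counted for it.

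The 5 measured pericyte genes had no unadjusted p below 0.05. Vtn, which encodes the matrix protein vitronectin, was at 46.3, 45.0, 65.4, 61.3 and 45.6 CPM in Cre- and at 60.1, 62.0, 50.4, 53.9 and 47.8 CPM in BMAL1 aKO libraries. All 5 BMAL1 aKO libraries were above Cre- replicates 1, 2 and 5 and below Cre- replicate 3, with a weighted difference of 0.17 (SE 0.08, adjusted p = 0.314, limma). The plain one was 0.07 (exact permutation p = 0.603). Abcc9, the sulfonylurea receptor subunit of the pericyte potassium channel, was at 13.6, 18.3, 14.0, 16.1 and 17.0 CPM in Cre- and at 16.3, 16.1, 16.2, 20.2 and 14.3 CPM in BMAL1 aKO libraries. The groups overlapped, with BMAL1 aKO replicate 4 the highest. Rgs5, a regulator of G-protein signalling, was at 112, 134, 95.5, 102 and 135 CPM in Cre- and at 113, 130, 121, 135 and 114 CPM in BMAL1 aKO libraries. Its plain and weighted differences were both 0.10. Pdgfrb itself had a weighted difference of -0.10 (95% interval from -0.40 to 0.20) and Anpep, the peptidase CD13, one of -0.05 (from -0.42 to 0.32).

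The 3 contractile genes of smooth muscle did not share a direction. Myl9, a regulatory light chain of myosin (ENSMUSG00000067818, chr2:156775420-156781658, plus strand), was at 7.45, 8.79, 11.9, 6.93 and 9.11 CPM in Cre- and at 9.36, 9.87, 8.90, 10.5 and 9.10 CPM in BMAL1 aKO libraries. Cre- replicate 3 was the highest and replicate 4 the lowest, with the BMAL1 aKO libraries between. For Myl9 the weighted difference was 0.27 (SE 0.10, adjusted p = 0.211, limma) and the plain one 0.12 (exact permutation p = 0.357). Without Cre- replicate 1 the weighted value was 0.11.

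Acta2, smooth muscle alpha-actin, was at 7.89, 8.79, 11.2, 8.65 and 10.5 CPM in Cre- and at 7.71, 9.03, 6.67, 9.82 and 7.34 CPM in BMAL1 aKO libraries. BMAL1 aKO replicates 1, 3 and 5 were below every Cre- library, with a weighted difference of -0.08 and a plain one of -0.20 (exact permutation p = 0.159). Tagln, the actin-binding protein SM22-alpha, was at 4.66, 4.44, 8.79, 5.79 and 3.81 CPM in Cre- and at 4.65, 5.50, 4.34, 4.41 and 2.69 CPM in BMAL1 aKO libraries. Cre- replicate 3 was the highest and BMAL1 aKO replicate 5 the lowest. Tagln exons overlap Pcsk7 on the opposite strand, and Acta2 shares most of its coding sequence with Acta1, which is also in the table.

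The levels of the 3 contractile genes were compared in pairs over the 10 libraries. For Acta2 and Tagln, r was 0.53 (permutation p = 0.112, adjusted over 3 pairs 0.214) and rho 0.36 (permutation p = 0.314, adjusted 0.471). For Acta2 and Myl9, r was 0.50 (permutation p = 0.143, adjusted 0.214) and rho 0.55 (permutation p = 0.105, adjusted 0.315). For Tagln and Myl9, r was 0.30 (permutation p = 0.399, adjusted 0.399) and rho 0.08 (permutation p = 0.840, adjusted 0.840). With the 2 libraries farthest from the median of the first gene left out, r became 0.25, 0.31 and -0.39. None of the 3 relations passed, and Cre- replicate 3 was among the libraries left out in each.

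Cspg5 is on the mural list but encodes neuroglycan C, a proteoglycan of neural cells, while the pericyte proteoglycan NG2 is the product of Cspg4. Cspg5 was at 183, 174, 276, 209 and 178 CPM in Cre- and at 221, 227, 191, 214 and 202 CPM in BMAL1 aKO libraries. All 5 BMAL1 aKO libraries were above the Cre- median, and Cre- replicate 3 was above all. Cspg5 had a weighted difference of 0.17 (SE 0.07, adjusted p = 0.258, limma) and the plain one 0.07 (exact permutation p = 0.643). Without Cre- replicate 5 the weighted value was 0.10. Cspg4 had a weighted difference of -0.03 (SE 0.15, adjusted p = 0.940, limma).

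**Figure D2:**
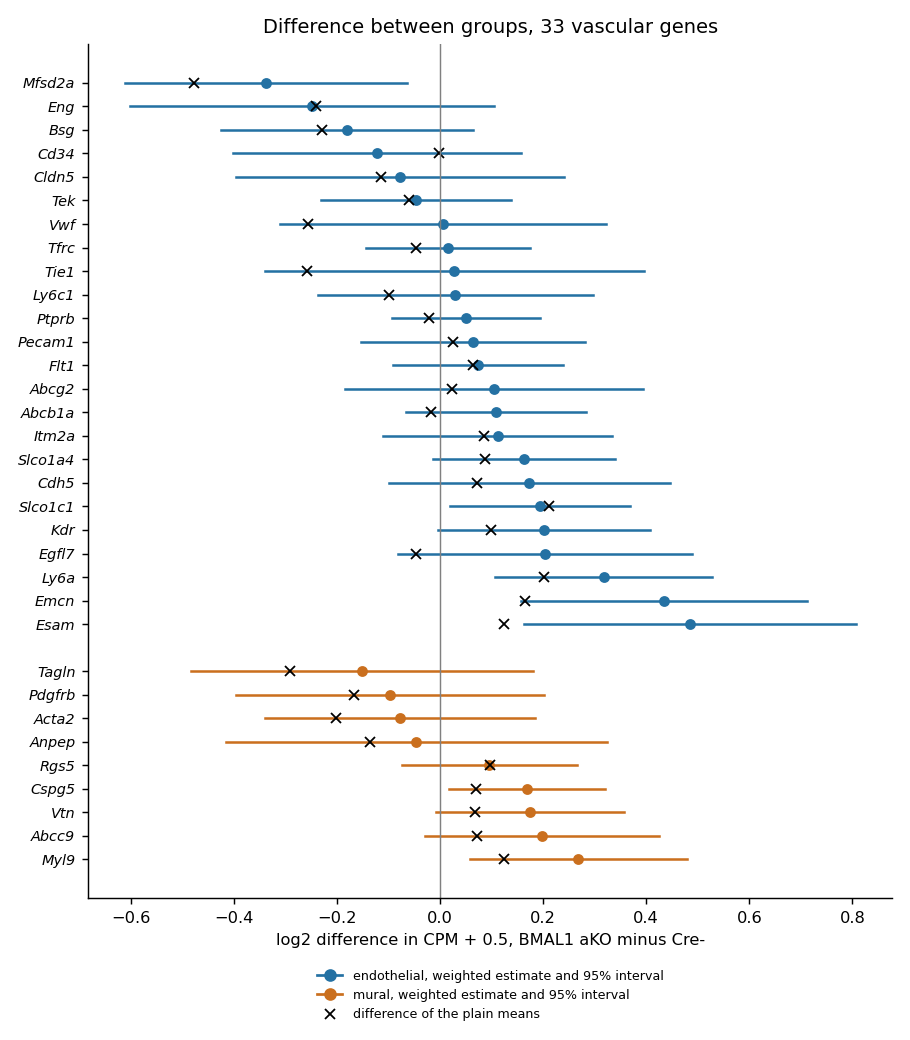
Log2 difference in CPM + 0.5, BMAL1 aKO minus Cre- (x axis), of 24 endothelial (blue) and 9 mural genes (orange), with the weighted estimate and its 95% interval as dot and line and the difference of the plain group means as a cross. Weighted estimates run from -0.34 (Mfsd2a) to 0.49 (Esam), and most crosses lie to the left of their dot.

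Endothelial and mural genes were compared as classes. The median weighted difference was 0.07 for the 24 endothelial genes, 0.10 for the 9 mural genes, 0.02 for the mural genes without Cspg5 and -0.04 for all 12573 genes. Weighted estimates were above 0 for 18 of 24 endothelial and 5 of 9 mural genes, next to 4828 of all 12573. With plain means the medians were -0.01, 0.07 and -0.06 for endothelial, mural and all genes, and -0.03 for the mural genes without Cspg5. The endothelial median and the mural median without Cspg5 thus differed in sign from their weighted values. Without Cre- replicate 1 the weighted medians were -0.06 for endothelial and -0.02 for mural genes, both below 0. As a level, the mean log2(CPM + 0.5) over endothelial genes was 4.69 ± 0.18 in Cre- and 4.66 ± 0.12 in BMAL1 aKO libraries (SD, n = 5). For mural genes it was 4.48 ± 0.20 and 4.44 ± 0.17. Both class levels were thus slightly lower in BMAL1 aKO, by less than their SD, whereas both weighted medians were above 0. The level difference was -0.03 for endothelial and -0.04 for mural genes, next to -0.05 for the median level of all genes. Without Cspg5 the mural level difference was -0.055, against -0.049 for all genes. Only with Cspg5 included were both classes not lower relative to all genes. The endothelial minus mural level was 0.21, 0.18, 0.09, 0.31 and 0.26 in Cre- and 0.23, 0.14, 0.28, 0.17 and 0.28 in BMAL1 aKO replicates 1 to 5. The 5 BMAL1 aKO values lay within the Cre- range, and the group means differed by 0.01, less than either SD (0.09 and 0.07).

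**Figure D3:**
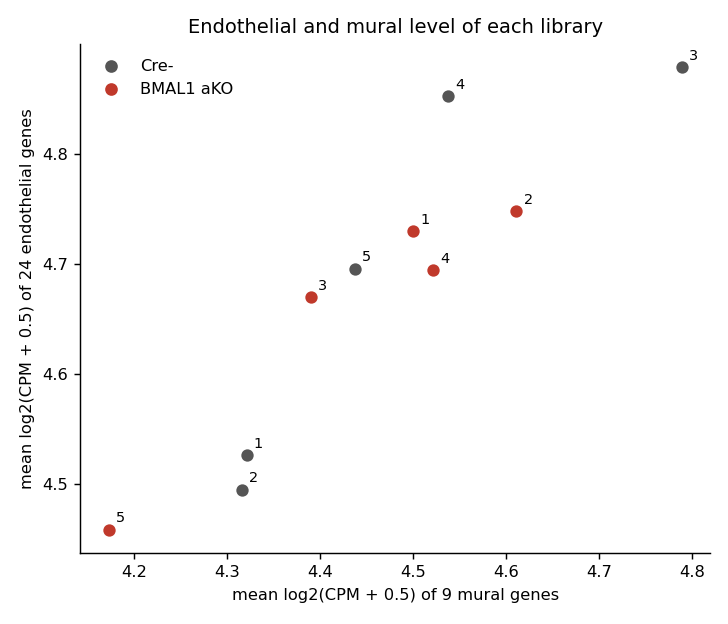
Mean log2(CPM + 0.5) of the 9 mural genes (x axis) and of the 24 endothelial genes (y axis) in each library, Cre- in grey and BMAL1 aKO in red, numbered by replicate. Libraries high in one class tended to be high in the other, with Cre- replicate 3 at the top right (4.79 and 4.88) and BMAL1 aKO replicate 5 at the bottom left (4.17 and 4.46).

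The 2 classes thus varied more between libraries of a group than between groups. In some libraries the deviation of the genes from their means went with their GC content, a pattern seen after the values were examined. Transcripts of the members had a GC content from 39.2% (Abcg2) to 60.5% (Cldn5). For example, Cldn5 was at 9.38 CPM in Cre- replicate 2 and 21.4 CPM in Cre- replicate 3, a ratio of 2.28. Abcg2 was at 19.2 and 13.2 CPM in the same libraries, a ratio of 0.69. A stretch of 120 coding bases from each, with G and C in capitals, shows the 2 ends of this range.
Cldn5, exon 1 of 1, GRCm38, chr16:18777263-18777382, plus strand: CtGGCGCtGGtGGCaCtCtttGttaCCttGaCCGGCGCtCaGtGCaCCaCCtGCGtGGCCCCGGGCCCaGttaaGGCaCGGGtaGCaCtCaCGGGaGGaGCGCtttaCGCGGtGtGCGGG
Abcg2, exon 9 of 16, GRCm38, chr6:58674633-58674752, plus strand: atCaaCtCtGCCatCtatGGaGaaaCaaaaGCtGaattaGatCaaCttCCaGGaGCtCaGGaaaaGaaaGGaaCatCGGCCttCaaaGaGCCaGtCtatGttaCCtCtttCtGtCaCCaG
Of the stretches, 66.7% (Cldn5) and 43.3% (Abcg2) of bases are G or C.

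Across the 33 members, the log2 ratio of Cre- replicate 3 to Cre- replicate 2 correlated with GC content at r = 0.84, and across 12548 genes of the table at r = 0.64. Over the members, GC content correlated with a library's deviation from the gene mean at 0.74 in Cre- replicate 3, the highest value. The lowest was -0.83, in Cre- replicate 2, so a high r for their ratio follows from the choice of this pair. The value was 0.06 in Cre- replicate 1 and -0.22 in BMAL1 aKO replicate 3. These are correlations across genes, which are not independent replicates. The median ratio was 2.14 for the 16 members above the median GC content and 0.91 for the 16 below it. In 11 members (Ly6c1, Vwf, Tie1, Mfsd2a, Esam, Egfl7, Eng, Bsg, Pdgfrb, Tagln and Anpep), Cre- replicates 3 and 4 were both above the other 8 libraries. This is 33.3% of the members, close to the 30.3% of all genes for which it held. Their median GC content was 54.9%, next to 47.8% for the other members. The same 2 libraries had the lowest mitochondrial shares, and the part of RNA quality in these values was not tested.

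**Figure D4:**
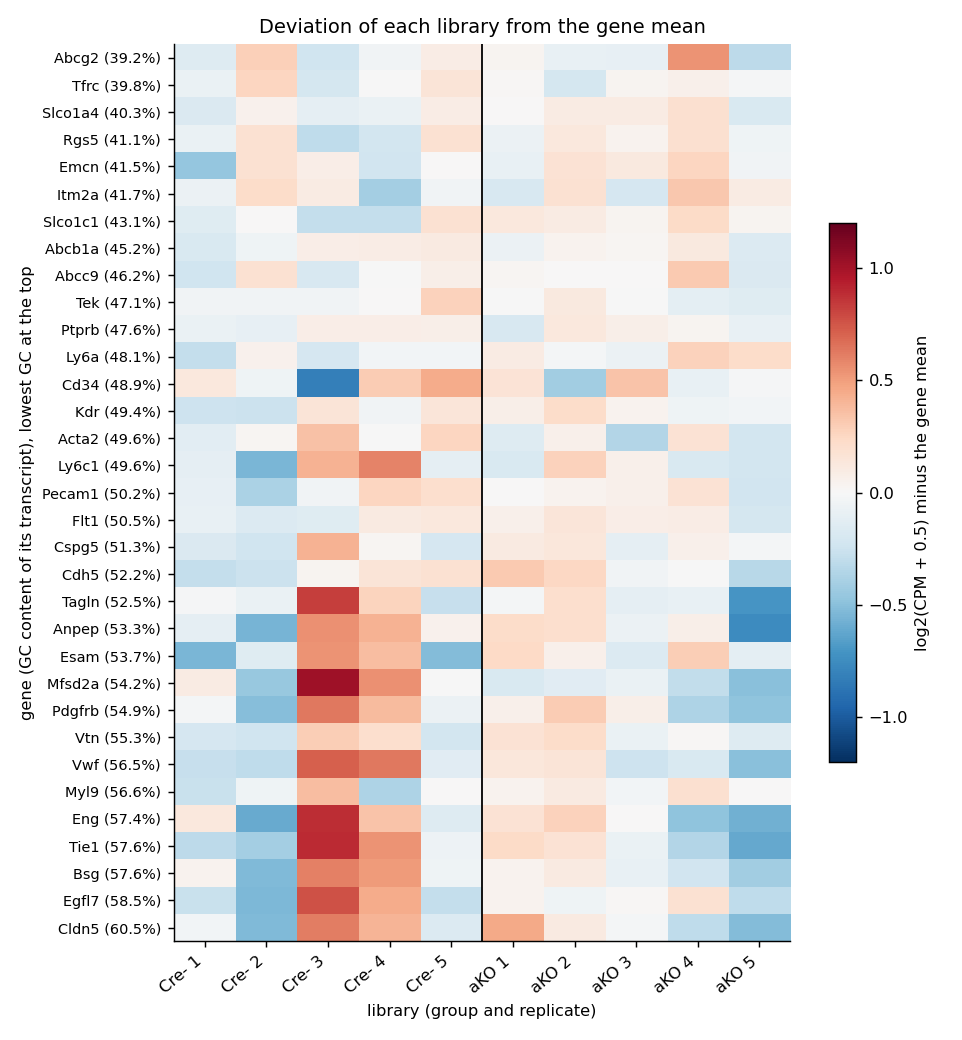
Log2(CPM + 0.5) minus the mean of the gene over 10 libraries (colour), with the 33 genes ordered by GC content from top (39.2%) to bottom (60.5%) and the libraries in columns, Cre- left of the line. In the lower rows Cre- replicates 3 and 4 are mostly red and Cre- replicate 2 and BMAL1 aKO replicate 5 mostly blue, while the upper rows lack this pattern.

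**Figure D5:**
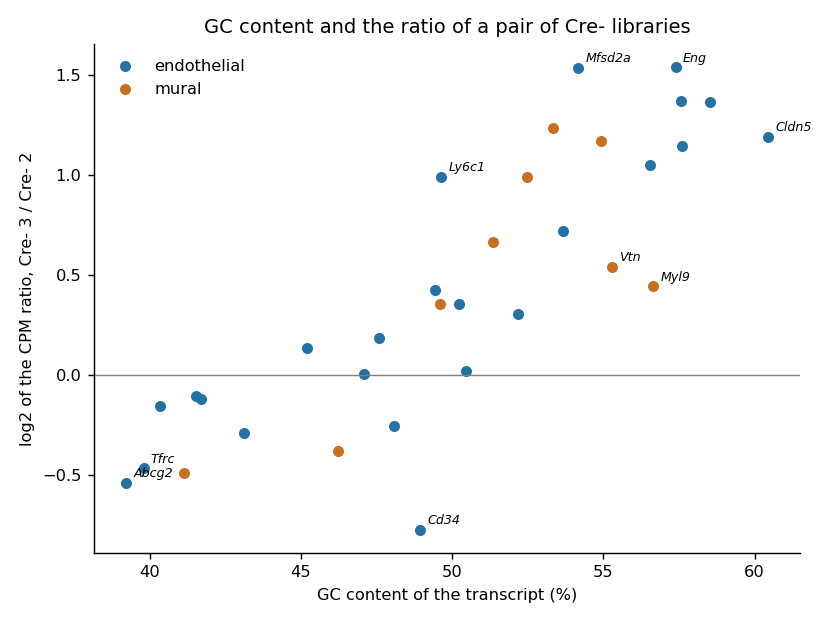
GC content of the transcript (x axis, %) and log2 ratio of the CPM in Cre- replicate 3 to that in Cre- replicate 2 (y axis) for 24 endothelial (blue) and 9 mural genes (orange). The 7 genes of lowest GC content lie below 0, and Eng and Mfsd2a reach the highest ratios (2.90 and 2.90). The pair holds the libraries with the highest and the lowest correlation of GC content with the deviation from the gene mean.

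With a GC trend removed from each library, 0 of 33 members passed, against 29 of 12548 genes. An unadjusted p below 0.05 was reached by 7 members (Mfsd2a, Ly6a, Slco1c1, Emcn, Cspg5, Esam and Vtn) and by 14.2% of all genes in that fit. Mfsd2a then had a weighted difference of -0.33 (SE 0.11, adjusted p = 0.291, limma) and Esam one of 0.44 (SE 0.16, adjusted p = 0.299, limma). With Cre- replicates 3 and 4 left out, 0 members passed, 14 of the 33 estimates changed sign, and Esam had the smallest adjusted p (0.144, limma). Both settings were chosen after seeing the data.

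Other genes of vessels were taken from 4 further lists, and none of them passed the test. Of 18 measured vascular ligands and receptors, 2 were higher and 0 lower at an unadjusted p below 0.05, with a median weighted difference of -0.01. Over all genes, 6.82% were higher and 10.0% lower at this p. The counts of these lists come from the weighted fit, in which Cre- replicate 1 had the largest weight. Jag1, a Notch ligand, was at 8.70, 6.96, 11.9, 7.37 and 10.0 CPM in Cre- and at 11.03, 11.98, 10.1, 10.4 and 12.002 CPM in BMAL1 aKO libraries. All 5 BMAL1 aKO libraries were above 4 of the Cre- libraries, and Cre- replicate 3 lay among them, with a weighted difference of 0.30 (SE 0.10, adjusted p = 0.183, limma). The plain one was 0.31 (exact permutation p = 0.0556). S1pr1, the sphingosine-1-phosphate receptor that also astrocytes express, had a weighted difference of 0.23 (SE 0.09, adjusted p = 0.244, limma), and Vegfb one of 0.09 (SE 0.07, adjusted p = 0.514, limma). Plain differences were 0.06 for S1pr1 (exact permutation p = 0.619) and 0.06 for Vegfb (exact permutation p = 0.595).

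Of 16 further barrier transporters and junction genes, 4 were higher and 0 lower at an unadjusted p below 0.05, with a median of 0.10. The shares over all genes were 6.82% higher and 10.0% lower. Slc16a1, the monocarboxylate transporter MCT1, was at 19.1, 23.3, 26.4, 31.9 and 21.7 CPM in Cre- and at 31.6, 30.6, 26.3, 31.8 and 22.1 CPM in BMAL1 aKO libraries. Cre- replicate 4 was the highest, the groups overlapped, and the weighted difference was 0.43 (SE 0.12, adjusted p = 0.175, limma). The plain one was 0.22 (exact permutation p = 0.222). Plvap, the diaphragm protein of fenestrated vessels, which the mature blood-brain barrier lacks, was at 4.43, 3.02, 8.09, 7.21 and 5.62 CPM in Cre- and at 11.6, 10.0, 7.80, 6.18 and 4.94 CPM in BMAL1 aKO libraries. BMAL1 aKO replicates 1 and 2 were above all others, and these had the highest (1574 CPM) and the lowest (187 CPM) summed level of choroid plexus genes, whose part in the Plvap values was not tested. Plvap had a weighted difference of 0.59 (SE 0.19, adjusted p = 0.183, limma) and a plain one of 0.49 (exact permutation p = 0.167). Slc22a8, the organic anion transporter OAT3, had a weighted difference of 0.31 (SE 0.12, adjusted p = 0.213, limma). Its plain difference was 0.22 (exact permutation p = 0.222).

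Among 19 genes of Wnt signalling and endothelial transcription factors, 0 reached an unadjusted p below 0.05, where 16.8% of all genes did, with a median of 0.03. The smallest p values belonged to Ctnnb1 (beta-catenin, weighted difference -0.22), Sox17 (an arterial transcription factor, 0.23) and Wnt7a (a ligand that maintains the barrier, 0.19). Their plain differences were -0.25, 0.13 and 0.19. Among 11 other contractile and mural genes, 0 reached this p, with a median of 0.00. Cald1, Smtn and Tpm1, all of which bind actin, had weighted differences of 0.15, -0.21 and -0.08 and plain ones of 0.25, -0.19 and 0.01.

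Summed levels of markers of cells around and inside vessels overlapped between the groups. The 10 measured (of 12 listed) meningeal fibroblast genes summed to 197 to 255 CPM in Cre- and 167 to 289 CPM in BMAL1 aKO libraries. The 3 measured blood genes (of 5) summed to 2.88 to 30.5 CPM in Cre- and 5.71 to 103 CPM in BMAL1 aKO libraries, with BMAL1 aKO replicate 3 the highest. The 2 measured perivascular macrophage genes (of 6) summed to 5.77 to 9.46 and 7.13 to 9.86 CPM, and the 10 microglial genes to 242 to 379 and 229 to 316 CPM. Their part in the vascular values was not tested.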

How the data were processed

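RNA of cerebral cortex (10 ng, RIN above 8 per the labels) was made into unstranded SMARTer Ultra Low libraries. The authors aligned reads with STAR 2.5.1a to Ensembl release 76 GRCm38, summed reads of each gene with featureCounts 1.4.6-p5 and deposited CPM of 12575 genes. Genes over 1 CPM in 4 libraries or more (12573) were taken as log2(CPM + 0.5) and fitted in limma 3.58.1 (R 4.3.3) with a trend and quality weights per library over all 10 libraries, with Benjamini-Hochberg adjustment over all genes and a threshold of 0.1. The difference of plain log2 means was tested with exact permutations. Nothing in the labels says how libraries were batched, and p-values measure the spread between these mice. GC content and length are of the longest coding transcript in GENCODE M21 (GRCm38), and promoter windows are from RefSeq. The members and lists were chosen with earlier results of these data known. Values in every library are given for the 3 members of each role with the smallest p and for members with an unadjusted p below 0.05, and up to 3 genes are named per further list. In simulated data with 200 of 12573 genes changed, the fit was checked before use. The simulation gave each gene the same spread in every library and no GC pattern. It therefore does not check the fit under the unequal weights found here. The study gives 4 BMAL1 aKO mice and an age of 5 months beside its RNA-seq figure, whereas the labels give 5 libraries and 4 months, so each library was also left out in turn. Replicates of a group differed by more than sampling noise. Python 3.11.15, NumPy 2.4.6, pandas 2.3.3, SciPy 1.17.1 and matplotlib 3.10.9 were used.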

Additional observations from a re-analysis of the deposited data

Results flagged for a closer look

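Each member's 5 libraries per group were tested for a value that stands apart from the others by Dixon's criterion. Of 66 groups, 2 were marked, and chance marks about 1 in 20. Flt1 was at 94.5 CPM in BMAL1 aKO replicate 5, where the other 4 BMAL1 aKO libraries were at 114 to 122 CPM. Tek was at 20.6 CPM in Cre- replicate 5, where the other 4 Cre- libraries were at 16.4 to 17.0 CPM.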

How the results depend on the processing

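Over 22 fits with other settings, 0 of the 33 vascular genes (32 above 5 CPM, where Tagln was left out) passed except without BMAL1 aKO replicate 3, where 2 did (Esam, log2 difference 0.56, and Ly6a, 0.40). The count of all genes past the threshold (42) became 68 with TMM scaling, 22 with Xist as a covariate, 4 without quality weights and 20 at a threshold of 0.05. Without 1 library it ran from 1 (without Cre- replicate 1) to 844 (without BMAL1 aKO replicate 3), and the vascular count from 0 to 2. Libraries were not treated as paired by their replicate numbers in the main fit. Over all genes, deviations from the group mean gave r within a number from -0.63 to 0.36 over 5 pairs, own number best for 1. So few pairs cannot show whether the mice were paired. With a replicate block 7 genes passed, 0 of them vascular, and the endothelial median was -0.12. Without 1 library the endothelial median ran from -0.06 to 0.13 and the mural one from -0.02 to 0.13, so the sign of neither class median held without Cre- replicate 1. The endothelial minus mural level difference ran from -0.02 to 0.04. Weights did not fully converge without Cre- replicate 1 and without Cre- replicate 5. The edgeR quasi-likelihood test and DESeq2 were not run, because the deposited values are CPM, but voomWithQualityWeights on reads recovered from the CPM called 29 genes, 0 of them vascular. The cause of these changes was not tested.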
